A study of Mus musculus with 6 samples.

Results

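Touch dome cells and hair follicle (HF) cells of mouse back skin were compared by ATAC-seq, an assay that marks accessible chromatin through the insertions of a transposase and from whose reads peaks are called. The comparison rested on 4 of the 6 peak lists of the study, 2 libraries for each population. Overlapping peaks of the 4 lists (by 1 bp or more) were merged into 72551 regions. A region was called open in a library that had a peak in it and closed otherwise. A peak in both touch dome libraries and in neither HF library was found at 6432 regions (8.87% of all), which are called touch dome regions here. The reverse held at 6054 (8.34%), called HF regions. Together they made 12486 differing regions, and "open" and "closed" state only whether a peak was called, since the lists hold no read counts.

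The mice were C57BL/6 animals of genotype TNC-CREER; tdTomato, in which a tamoxifen-activated Cre made from the Tnc locus switches on a red reporter. All groups, HF included, came from this genotype and received tamoxifen (100 µg/g) on P51 and again on P52, with back skin taken at P60 (postnatal day). Touch dome cells were sorted as positive for EPCAM, SCA1, α6-integrin and TOMATO. HF cells were sorted as positive for EPCAM and α6-integrin and negative for SCA1 and TOMATO. Interfollicular epidermis (IFE) cells, used here only as a further readout, shared the touch dome gate apart from being TOMATO negative. Each library was made from 50000 sorted cells. The 2 populations therefore differed in 2 sorted markers, SCA1 and the reporter, and a TOMATO-positive cell is one in which Cre acted or a descendant of it. Separate animals are not named for the libraries, and replicate spread could thus be technical spread only.

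Touch domes are small raised patches of epidermis beside guard hair follicles, where columnar keratinocytes adjoin mechanosensory Merkel cells that are contacted by sensory nerve endings. The keratinocytes of the dome are known for Hedgehog signalling and for keratin 17, traits otherwise typical of the follicle. Follicle epithelium holds stem cells of the bulge and outer root sheath, which depend on transcription factors such as SOX9, LHX2, NFATC1 and the nuclear factor I proteins, together with the cells of the sebaceous duct and upper follicle. SCA1, encoded by Ly6a, marks basal cells of the interfollicular epidermis and infundibulum, and is low in the lower follicle.

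The promoters below are shown because a differing region lay over the annotated start that defines the window. For Bdnf that start lies inside the gene, as given further on. Each window runs from 250 bases before to 50 bases after the start and comes from RefSeq for GRCm38.p6, the assembly behind mm10, 5′ to 3′ on the gene's own strand. Capitals mark matches, on either strand, to any of 9 short motifs searched. Those found in these windows are AP-1 (TGANTCA), Klf (GGGCGTG), Ets (CCGGAAG), Lhx (TAATTA) and the E-box (CAGCTG), and the Hhip window holds none of the 9. Irf4 encodes an interferon regulatory factor and Cldn7 a tight junction claudin. Skint11 encodes a member of the SKINT family, relatives of the selection factor for epidermal γδ T cells, and Mmp3 a matrix metalloproteinase. The regions over these 4 promoters were open in both touch dome libraries.
Irf4: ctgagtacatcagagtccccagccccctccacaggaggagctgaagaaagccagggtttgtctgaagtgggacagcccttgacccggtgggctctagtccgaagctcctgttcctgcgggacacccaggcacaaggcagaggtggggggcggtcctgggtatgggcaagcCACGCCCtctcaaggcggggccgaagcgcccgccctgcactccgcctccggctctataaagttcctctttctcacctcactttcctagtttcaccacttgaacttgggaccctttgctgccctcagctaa
Cldn7: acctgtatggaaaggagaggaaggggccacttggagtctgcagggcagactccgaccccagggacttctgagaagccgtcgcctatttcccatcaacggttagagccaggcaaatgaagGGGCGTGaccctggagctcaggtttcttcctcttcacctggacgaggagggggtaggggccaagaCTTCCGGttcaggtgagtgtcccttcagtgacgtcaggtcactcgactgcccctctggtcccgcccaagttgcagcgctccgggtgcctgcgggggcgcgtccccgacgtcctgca
Skint11: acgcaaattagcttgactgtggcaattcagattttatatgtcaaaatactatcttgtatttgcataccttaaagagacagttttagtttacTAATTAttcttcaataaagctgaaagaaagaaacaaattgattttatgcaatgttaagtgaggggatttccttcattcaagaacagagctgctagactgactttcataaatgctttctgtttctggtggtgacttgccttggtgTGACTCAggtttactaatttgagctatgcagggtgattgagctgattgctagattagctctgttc
Mmp3: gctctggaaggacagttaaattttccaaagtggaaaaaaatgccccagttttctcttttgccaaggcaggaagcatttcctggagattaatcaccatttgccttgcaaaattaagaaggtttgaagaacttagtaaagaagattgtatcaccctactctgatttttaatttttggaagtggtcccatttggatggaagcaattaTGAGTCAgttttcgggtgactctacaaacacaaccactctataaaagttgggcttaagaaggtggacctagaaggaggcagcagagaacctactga
Bdnf encodes a neurotrophin that supports sensory neurons, Gdf10 a TGF-beta family ligand, and Hhip a Hedgehog-binding antagonist often used as a touch dome marker. The regions over their promoters were open in both HF libraries.
Bdnf: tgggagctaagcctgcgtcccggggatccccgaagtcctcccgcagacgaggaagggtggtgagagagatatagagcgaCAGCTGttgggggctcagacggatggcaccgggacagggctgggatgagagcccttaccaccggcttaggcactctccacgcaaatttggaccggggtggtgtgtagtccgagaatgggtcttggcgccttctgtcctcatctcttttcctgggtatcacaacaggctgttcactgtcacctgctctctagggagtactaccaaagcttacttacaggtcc
Gdf10: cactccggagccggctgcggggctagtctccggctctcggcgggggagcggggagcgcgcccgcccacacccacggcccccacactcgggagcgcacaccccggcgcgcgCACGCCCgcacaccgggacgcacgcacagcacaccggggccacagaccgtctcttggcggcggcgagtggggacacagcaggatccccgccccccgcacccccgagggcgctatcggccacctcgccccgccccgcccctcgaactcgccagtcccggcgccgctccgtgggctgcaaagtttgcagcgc
Hhip: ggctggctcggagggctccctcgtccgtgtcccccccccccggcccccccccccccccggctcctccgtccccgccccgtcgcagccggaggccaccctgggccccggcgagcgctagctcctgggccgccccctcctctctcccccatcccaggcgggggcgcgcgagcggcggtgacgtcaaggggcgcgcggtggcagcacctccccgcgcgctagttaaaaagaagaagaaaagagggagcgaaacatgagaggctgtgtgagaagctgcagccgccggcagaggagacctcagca
Skint11, Mmp3, Gdf10 and Hhip were chosen for display after their values were seen, and a motif match is a description of the letters alone.

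At Irf4, the peaks in the region over the start (chr13:30748942-30750524, mm10) were 1238 and 1583 bp long in the touch dome libraries. Both IFE libraries also had a peak, and neither HF library did. The Cldn7 peak (chr11:69965177-69966501) was 1325 and 1076 bp, that of Skint11 (chr4:114162901-114163965) was 997 and 1032 bp, and that of Mmp3 (chr9:7445414-7446285) was 740 and 872 bp. Each of these was closed in both HF libraries and open in both IFE libraries. The Bdnf peak (chr2:109693306-109695329) was 2024 and 1695 bp in the HF libraries. Its window was taken from a start at chr2:109694409, inside the gene span of chr2:109674700-109727043 and not at an end of it. The Hhip peak (chr8:80057290-80058130) was 824 and 841 bp, and the region covered 172 of the 300 bases shown. The Gdf10 peak (chr14:33923168-33924354) was 1187 bp in HF replicate 1 but 297 bp in HF replicate 2. Overlap was scored for the merged region, so the peak of a single library, such as the shorter one at Gdf10, need not reach the window. At all 3 of these promoters, neither touch dome nor IFE library had a peak.

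The libraries were alike in median peak width, and the number of peaks differed most between the touch dome replicates. The touch dome lists held 50153 and 59250 peaks and the HF lists 54844 and 57131, with median widths of 862 and 912 bp and of 909 and 858 bp. Touch dome replicate 2 alone was open at 4661 regions and touch dome replicate 1 alone at 1001, against 2211 and 3808 for HF replicates 1 and 2. The replicates disagreed at 13033 regions in touch dome and at 10279 in HF. The sequencing depth of each library is unknown, so a region closed in one library may hold signal below the calling threshold.

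**Figure D1:**
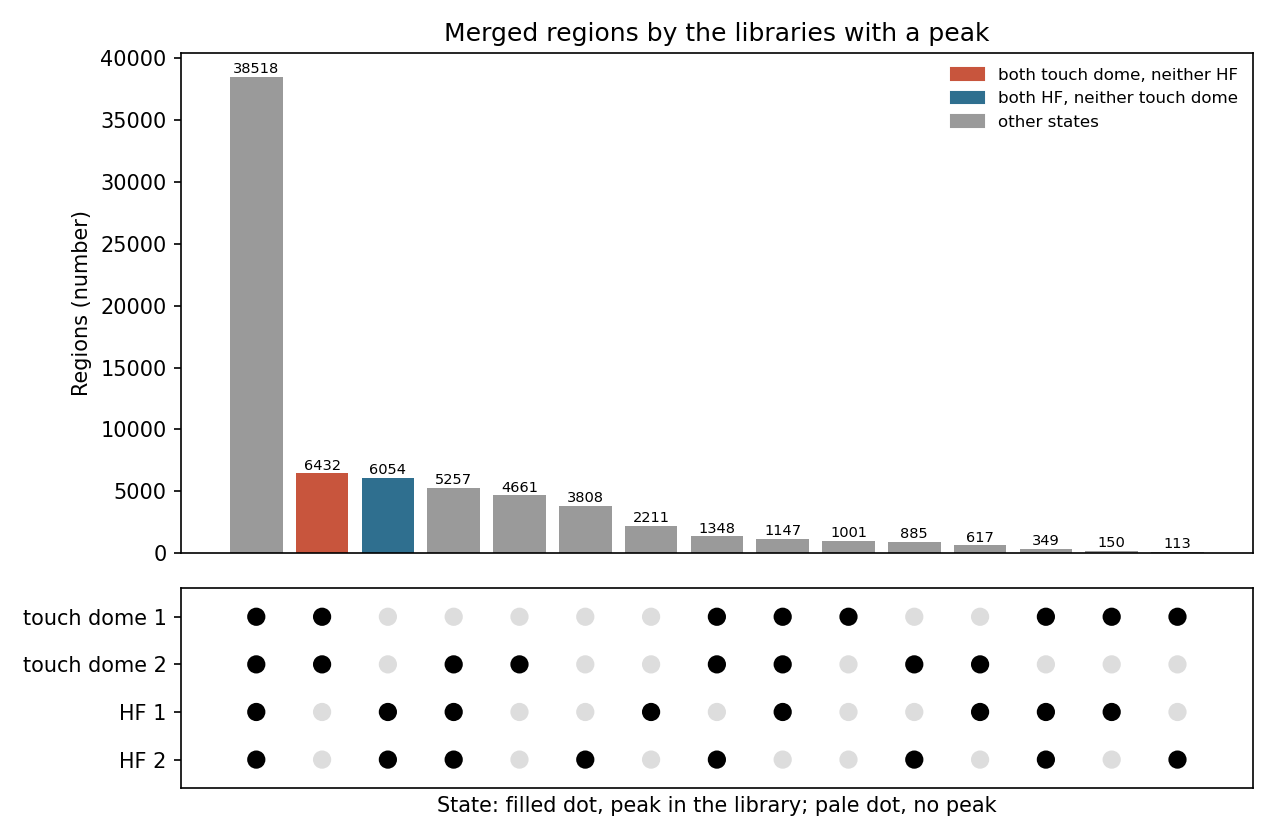
Number of merged regions (vertical axis) in each of the 15 states found, where a filled dot below the bar means a peak in that library. The bar for all 4 libraries stands at 38518 regions, and the touch dome regions (6432) and HF regions (6054) are the next tallest.

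Most regions were common to both populations, with 38518 (53.1%) open in all 4 libraries. The Jaccard index was used, which divides the bases covered by both of 2 lists by the bases covered by either. The touch dome replicates scored 0.723 and the HF replicates 0.781. The 4 pairs of a touch dome and an HF library scored 0.594, 0.585, 0.634 and 0.625, a mean of 0.610 ± 0.0237 (SD over the 4 pairs). Every pair across the populations thus scored below both replicate pairs. Within-group similarity exceeded the rest by 0.143, with a one-sided exact permutation p of 0.333, the smallest that the 3 ways of pairing 4 libraries allow.

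The 2 directions of difference had very different states in IFE, which took no part in choosing the regions. Of the touch dome regions, 84.5% had a peak in IFE replicate 1 and 79.9% in IFE replicate 2, a mean of 82.2% ± 3.21 (SD, n = 2). Of the HF regions, 7.27% and 10.2% did, a mean of 8.72% ± 2.06 (SD, n = 2). Both IFE libraries were open at 4997 touch dome regions (77.7%) and at 251 HF regions (4.15%). Both were closed at 855 touch dome regions (13.3%) and at 5249 HF regions (86.7%). Most touch dome regions were therefore regions shared with the other SCA1-positive population, and most HF regions were closed in both SCA1-positive populations. The gap between the directions exceeded the spread between the IFE libraries, and no test was made over 2 libraries.

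The state of regions called in a single library frames these values. Regions open in 1 touch dome library alone had an IFE peak in 44.7% ± 5.23 of cases, and regions open in 1 HF library alone in 7.86% ± 0.211 (SD, n = 2 IFE libraries). Regions open in all 4 libraries had one in 90.6% ± 0.0349. With touch dome replicate 2 left out, the share for HF regions was 23.2%, and with touch dome replicate 1 left out the share for touch dome regions was 66.7%, so the criterion of both replicates bears on the values though not on their order.

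**Figure D2:**
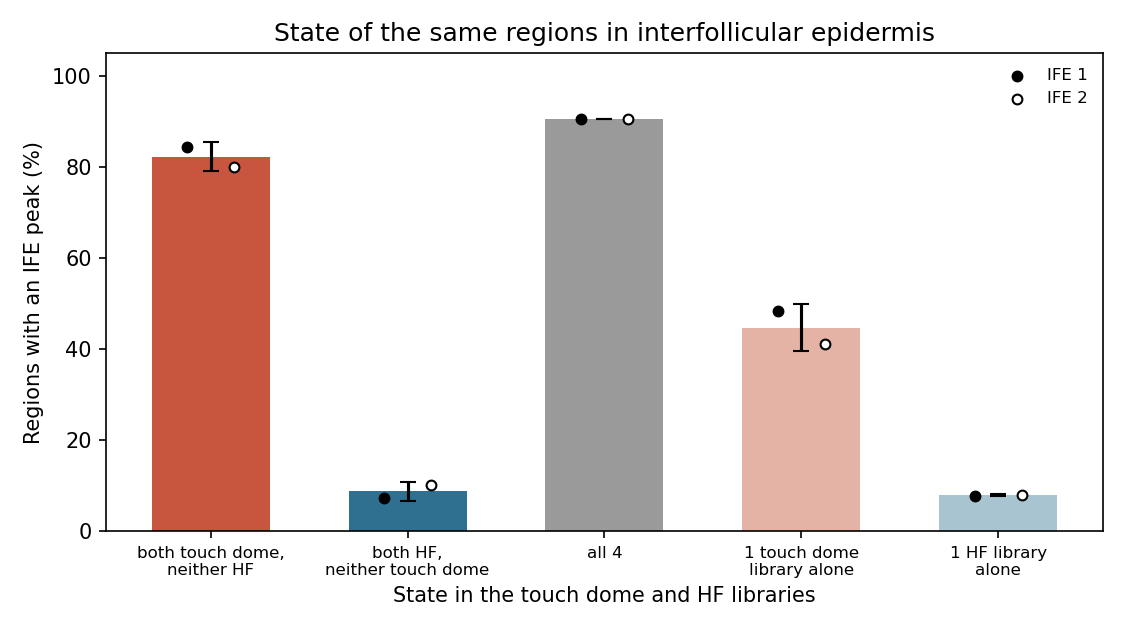
Share of regions with a peak in interfollicular epidermis (vertical axis, %), by their state in the touch dome and HF libraries (horizontal axis). Bars are means of the 2 IFE libraries, error bars their SD and dots the single libraries. Touch dome regions lie at 84.5% and 79.9%, and HF regions at 7.27% and 10.2%.

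Differing regions lay mostly away from gene ends. Within 1 kb of an end of a protein-coding gene were 325 touch dome regions (5.05%) and 261 HF regions (4.31%), against 29.4% of the regions open in all 4 libraries. HF regions lay further out, at a median of 34197 bp from the nearest gene end, compared with 25642.5 bp for touch dome regions and 11005.5 bp for shared regions. Inside a gene span lay 50% of touch dome and 50.4% of HF regions. They were also narrower, with median widths of 741.5 bp for touch dome and 626 bp for HF regions against 1224 bp for shared regions. The widest touch dome regions lay at Pla2g4e (3140 bp), a cytosolic phospholipase A2 gene, and 7160 bp from Bmp3, a bone morphogenetic protein gene (3075 bp). Others among the 5 widest lay inside Dlg2, near Rab18 and at a site with no gene within 50 kb, and all 5 were open in both IFE libraries. Of the 5 widest HF regions, those near Elmo1, an engulfment and migration gene (2587 bp), and Nrtn, which encodes the neurotrophic factor neurturin (2579 bp), were closed in IFE, as was the widest of all, 3272 bp with no gene within 50 kb. The region near Bcl9, a Wnt co-activator gene, was open in both IFE libraries, and that over Avpr1a, a vasopressin receptor gene, was open in 1.

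Each region was given to the nearest protein-coding gene within 50 kb, which placed 60141 regions (82.9%) at 15542 genes. Among these regions, 8.48% were touch dome regions and 7.61% HF regions, the shares against which gene groups are read below. In all, 5402 genes had a differing region, 2638 with more touch dome regions, 2306 with more HF regions and 458 with as many of each. The median over all genes was a net of 0. Regions of a gene share their libraries and are not replicates, so gene and list counts are descriptions without a test.

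Rora, which encodes a retinoid-related orphan receptor active in keratinocyte differentiation, led the touch dome direction. Of its 37 regions, 33 and 33 had a peak in the touch dome libraries, 20 and 20 in the HF libraries and 30 and 30 in the IFE libraries. Touch dome regions made up 12 of the 37, and none was an HF region. Slc24a3, a sodium, calcium and potassium exchanger gene, had 32 regions, of which 21 and 29 were open in touch dome, 8 and 12 in HF and 28 and 27 in IFE, giving 13 touch dome and 2 HF regions. Il20ra, a receptor gene for cytokines of the IL-20 group, had 9 and 9 of its 9 regions open in touch dome, 1 and 2 in HF and 9 and 9 in IFE. Pibf1 (8 touch dome and 0 HF regions), Nsf (7 and 0), a gene of vesicle fusion, Rasa3 (6 and 0) and Myo1d (6 and 0) showed the same pattern, with every touch dome region also open in both IFE libraries.

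Cfap299 and Slc35f1 differed from these in IFE. At Cfap299, 11 and 13 of 14 regions were open in touch dome, 1 and 1 in HF and 5 and 4 in IFE. At Slc35f1, 10 and 11 of 12 were open in touch dome, 1 and 2 in HF and 5 and 4 in IFE. Both had 9 touch dome and 0 HF regions, of which 5 at Cfap299 and 4 at Slc35f1 were closed in both IFE libraries, so these genes had more open regions in touch dome than in either other population. The remaining leaders were Dlg2 (11 touch dome and 2 HF regions), a synaptic scaffold gene, Arhgef3 (9 and 1), Thsd4 and Robo1 (7 and 0 each), and Fhod3 and Fbxw7 (6 and 0 each). Robo1 encodes a receptor for SLIT guidance cues and Fbxw7 a ubiquitin ligase subunit. With 1 library left out, which can only add differing regions to those found with all 4, the net count of Dlg2 was 8 to 16, that of Slc24a3 11 to 17, that of Robo1 6 to 12 and that of Myo1d 6 to 10, while that of Rora was 12 to 13.

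**Figure D3:**
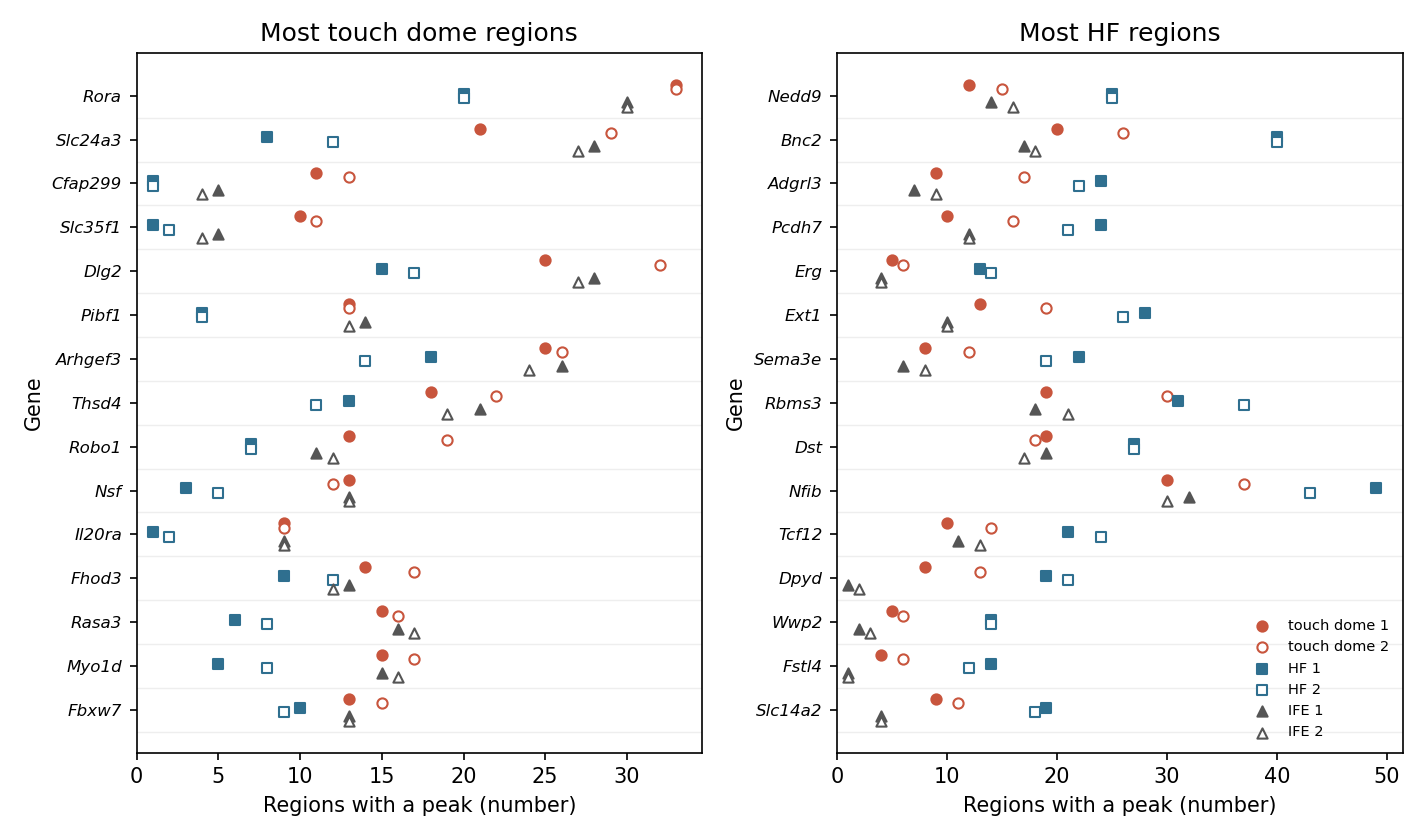
Number of regions with a peak in each library (horizontal axis) at the 15 genes with the largest net number of touch dome regions (left) and of HF regions (right). Circles are touch dome, squares HF and triangles IFE libraries, filled for replicate 1 and open for replicate 2. At Rora the touch dome libraries stand at 33 and the HF libraries at 20, and at Bnc2 the HF libraries stand at 40 and the touch dome libraries at 20 and 26.

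Genes of epidermal differentiation and the skin barrier lay on the touch dome side. Of the 234 regions at 30 such genes, 38 (16.2%) were touch dome regions and 20 (8.55%) HF regions, 11 genes having more of the former, 8 more of the latter and 11 as many of each. Besides Rora, Tgm3, which encodes an epidermal transglutaminase, had 13 and 13 regions open in touch dome, 7 and 8 in HF and 13 and 13 in IFE, with 6 touch dome regions and 1 HF region. Grhl3, a barrier regulator gene, had 12 and 13 against 9 and 8 (3 and 0), and Abca12, a lipid transporter gene of the barrier, 13 and 14 against 10 and 10 (3 and 0). Prdm1, which encodes the repressor BLIMP1, stood at 8 and 9 open regions in touch dome and 15 and 14 in HF, with 1 touch dome and 7 HF regions, and is known from the sebaceous gland and upper follicle as well. Rora held 12 of the 38. The net count of the list, touch dome minus HF regions, was 18. It was 28 without touch dome replicate 1 and 32 when a peak had to cover at least 50% of a region.

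The nuclear receptor genes stood at 26 touch dome regions (12.4% of 210) and 12 HF regions (5.71%), but 12 of the 26 were at Rora. Esrrg, an oestrogen-related receptor gene, had 7 and 7 regions open in touch dome and 1 and 3 in HF (4 touch dome and 0 HF regions), whereas Thrb, a thyroid hormone receptor gene, stood at 1 and 4. Leaving out HF replicate 1 changed the net count from 14 to 1, and leaving out touch dome replicate 1 or 2 changed it to 25 or 7. Among p63, AP-2, Klf and Grhl genes, transcription factors of surface epithelium, 27 regions (10.8% of 250) were touch dome and 15 (6%) HF regions. Klf5 had 6 and 8 open regions in touch dome, 4 and 4 in HF and 8 and 8 in IFE (4 and 0), and Ehf, Ets1 and Grhl3 had 3 and 0 each. Trp63, which encodes p63, the master regulator of the basal layer, was even at 2 and 2. Their net count of 12 was 22 or 2 when touch dome replicate 1 or 2 was left out, and it was -5 with only peaks at least as wide as their library's median kept.

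Basal genes of the interfollicular epidermis had 24 touch dome regions (10.1% of 237) and 15 HF regions (6.33%). Itga6, the α6-integrin gene, had 15 and 15 regions open in touch dome, 9 and 9 in HF and 17 and 16 in IFE, with 6 touch dome regions and 1 HF region, although both populations were sorted as α6-integrin positive. Dst, which encodes the hemidesmosomal linker dystonin, went the other way, with 19 and 18 open regions in touch dome and 27 and 27 in HF (1 touch dome and 8 HF regions). Lama3, a laminin-332 chain gene, had 3 and 1. Without touch dome replicate 2 the net count of 9 was 0, without HF replicate 2 it was 4 and without touch dome replicate 1 it was 14. Integrin, laminin and hemidesmosome genes as a whole stood at 22 and 22 (8.43% each of 261). Their net count of 0 was 19 or -10 when touch dome replicate 1 or 2 was left out.

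Genes of follicle stem cells and the outer root sheath were the group furthest toward HF by net count, which can grow with the number of regions. Of 448 regions at 30 genes, 15 (3.35%) were touch dome regions and 61 (13.6%) HF regions. More HF regions were present at 19 of these genes, as many of each at 11 and more touch dome regions at 0. By library, 275 and 328 of the 448 regions were open in touch dome, 394 and 377 in HF and 269 and 261 in IFE. Of the 61 HF regions, 53 were closed in both IFE libraries. Bnc2, a basonuclin gene, had 20 and 26 of its 45 regions open in touch dome and 40 and 40 in HF, which gave 1 touch dome and 11 HF regions. Nfib, a nuclear factor I gene required for stem cell behaviour in the follicle, had 30 and 37 of 51 open in touch dome and 49 and 43 in HF (0 and 6). Runx1 had 17 and 23 against 25 and 25 (3 and 7). Lgr6, a stem cell receptor gene of the upper follicle, had 8 and 10 against 12 and 13 (0 and 3). Below the rule for named genes, and chosen after their values were seen, Lgr5, a bulge and germ marker, stood at 8 and 8 against 12 and 14 (0 and 2), while Cd34 and Krt15 had no differing region. The net count of -46 was -90 when touch dome replicate 2 was left out and -73 when HF replicate 2 was. It was -39 without touch dome replicate 1 and -33 when only regions that overlap a gene were counted.

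The genes with the largest net number of HF regions included Bnc2 and Nfib, given above, and Dst. Nedd9, a scaffold gene of integrin signalling, had 12 and 15 of 28 regions open in touch dome, 25 and 25 in HF and 14 and 16 in IFE, with 0 touch dome and 10 HF regions. Sema3e, a semaphorin gene, had 8 and 12 of 22 open in touch dome against 22 and 19 in HF (0 and 7). Erg, an ETS factor gene best known from endothelium, had 5 and 6 of 14 open in touch dome, 13 and 14 in HF and 4 and 4 in IFE (0 and 8). Adgrl3 and Pcdh7, a latrophilin and a protocadherin gene, had 0 and 8 each, and Ext1, a heparan sulphate polymerase gene, 0 and 7. Rbms3 (1 and 8), Slc14a2 (1 and 7) and Tcf12, Dpyd, Wwp2 and Fstl4 (0 and 6 each) completed the 15 genes. At Dpyd and Fstl4 the IFE libraries had fewer open regions, 1 and 2 and 1 and 1, than the touch dome libraries, 8 and 13 and 4 and 6, which in turn had fewer than HF, 19 and 21 and 14 and 12. With 1 library left out, the net count of Rbms3 was -13 to -3, that of Nfib -13 to -6, that of Bnc2 -16 to -11, that of Adgrl3 -13 to -7 and that of Tcf12 -11 to -6.

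Lists of transcription factors differed in how far they stood from the background. The 6 nuclear factor I and basonuclin genes had 6 touch dome and 23 HF regions (3.37% and 12.9% of 178), most of the HF regions at Bnc2 and Nfib, and the net count of -17 was -33 to -15 with 1 library left out. Hox genes, which record position along the body axis, had 0 touch dome and 8 HF regions (9.64% of 83), spread over Hoxc4 (2) and Hoxa3, Hoxa5, Hoxa13, Hoxb6, Hoxc13 and Hoxd3 (1 each), and all 8 were closed in both IFE libraries. The Hox share toward HF was near that of all regions near genes (7.61%), and the net count of -8 was -15 without touch dome replicate 2 and -1 with wide peaks only. Forkhead, Sox and Runx genes had 23 and 34 (7.59% and 11.2% of 303), with 8 genes toward touch dome, 12 toward HF and 16 even. Foxp1 stood at 0 and 5 and Foxo3 at 0 and 3, whereas Foxq1 and Sox4 stood at 2 and 0. For this last list the net count of -11 was 17 without touch dome replicate 1, -22 without touch dome replicate 2 and -19 without HF replicate 1.

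**Figure D4:**
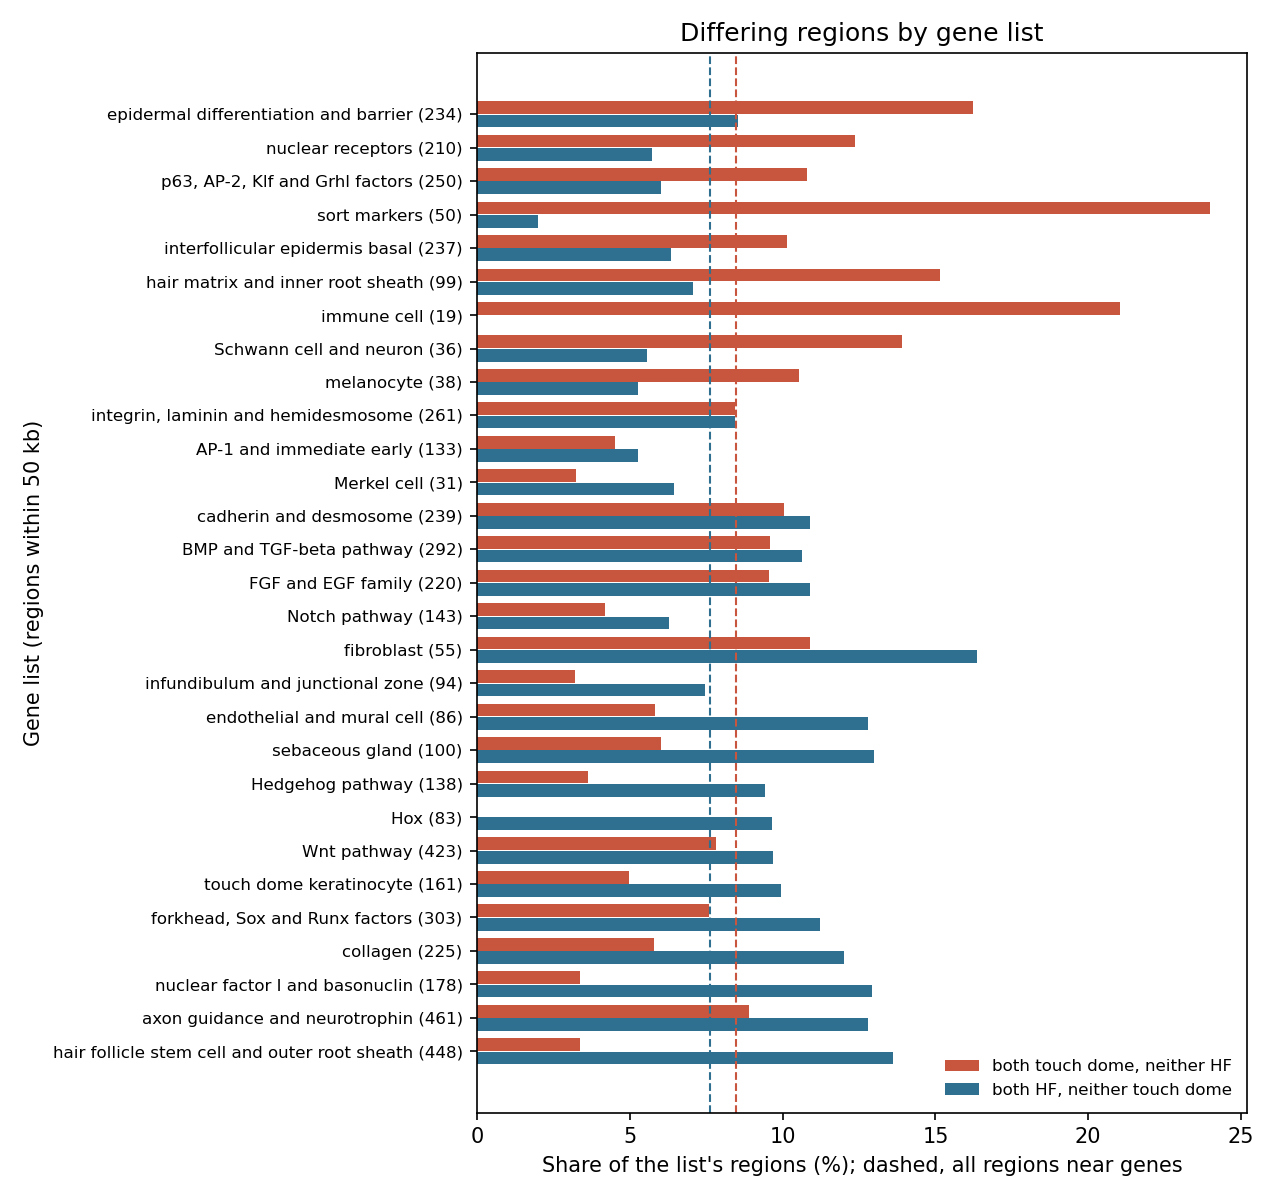
Touch dome and HF regions as a share of the regions at each gene list (horizontal axis, %), with the number of regions of the list in parentheses and dashed lines for all regions near genes (8.48% and 7.61%). Lists are ordered by net count, from epidermal differentiation and barrier at the top (16.2% and 8.55%) to follicle stem cells and outer root sheath at the bottom (3.35% and 13.6%).

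Genes known from touch dome keratinocytes did not lie on the touch dome side in this comparison. Of 161 regions at 14 such genes, 8 were touch dome regions (4.97%) and 16 HF regions (9.94%). Of the 14 genes, 3 had more touch dome regions, 6 more HF regions and 5 as many of each. Tnc, the gene behind the reporter and hence not independent of the sort, had 17 and 18 of 18 regions open in touch dome, 13 and 12 in HF and 12 and 12 in IFE, with 3 touch dome and 0 HF regions. Cd200 had 6 and 6 against 10 and 10 (0 and 4), Efnb2, an ephrin gene, 6 and 7 against 9 and 10 (0 and 3), and Slc1a3, a glutamate transporter gene, 4 and 4 against 6 and 9 (0 and 2). Cadm1, an adhesion gene, had 21 and 24 against 31 and 25 (2 and 4). The other genes with more touch dome regions were Aqp3, a water and glycerol channel gene, and Ntrk2, a neurotrophin receptor gene, with 1 and 0 each. Krt17 and Hhip had 0 touch dome regions and 1 HF region each, and Gli1 and Ptch1 had neither. These last 6 genes were named after their values were seen. The net count of -8 was 0 without touch dome replicate 1 and -14 without HF replicate 2.

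Among the other sort markers, Ly6a, which encodes SCA1, had 5 and 5 of 5 regions open in touch dome and in IFE and 2 and 2 in HF (3 touch dome and 0 HF regions), in the order of the gates. Epcam, positive in both gates, had no differing region.

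Hedgehog genes had 5 touch dome and 13 HF regions (3.62% and 9.42% of 138), with more HF regions at 6 of 15 genes and more touch dome regions at 0. The HF share was near that of all regions near genes (7.61%), and the touch dome share lay below the matching 8.48%. The net count of the list, -8, was -1 within 10 kb of a gene, -4 without touch dome replicate 1, -21 without touch dome replicate 2 and -16 without HF replicate 1. Hhat, which encodes the acyltransferase that lipidates Hedgehog ligands, had 5 and 8 regions open in touch dome and 11 and 13 in HF (0 and 3). Disp1, needed for ligand release, stood at 1 and 2, Gli3, a pathway transcription factor gene, at 1 and 2, and Gli2 was even at 2 and 2. The receptor gene Ptch1 and the target gene Gli1, the usual readouts of the pathway, had no differing region, and all their regions, 5 and 2, were open in all 4 libraries.

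Wnt genes were close to the background in number, with 33 touch dome and 41 HF regions (7.80% and 9.69% of 423), with members on either side. For the whole list the net count of -8 was -2 without touch dome replicate 1, -53 without touch dome replicate 2, -17 without HF replicate 1 and -26 without HF replicate 2. Of the ligand genes, Wnt3 and Wnt5a had 3 touch dome and 0 HF regions each and Wnt7a 3 and 1, while Wnt10b stood at 0 and 2. At Wnt3, 5 and 5 regions were open in touch dome, 2 and 1 in HF and 5 and 5 in IFE. The receptor gene Fzd10 stood at 3 and 0, while the co-receptor genes Lrp5 and Ror1 stood at 0 and 3 each, as did the R-spondin receptor gene Lgr6. Of the secreted inhibitors, Sfrp1 had 3 and 0, and Wif1 had 0 and 3, with 2 and 3 regions open in touch dome and 6 and 6 in HF. These members were picked by role after their values were seen. In the width comparison given further on, regions at Wnt3, Wnt5a, Wnt7a, Ryk, Tcf7l1 and Ror1 were wider in touch dome and 1 at Sfrp1 was wider in HF. At Ror1 and Sfrp1 this was the reverse of the direction of their differing regions.

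The BMP and TGF-beta list held 28 touch dome and 31 HF regions (9.59% and 10.6% of 292), and its net count of -3 changed sign under 3 settings and was -20 to 0 with 1 library left out. Smad2, a TGF-beta signal transducer gene, had 9 and 10 regions open in touch dome and 5 and 5 in HF (5 and 0), and Bmpr1b, a BMP receptor gene, 8 and 8 against 4 and 4 (3 and 0). Bmp6, a ligand gene, stood at 6 and 6 against 12 and 10 (0 and 4), Fstl1, a secreted BMP antagonist gene, at 2 and 3 against 7 and 7 (0 and 4), and Ltbp1, a TGF-beta binding protein gene, at 2 and 6. The FGF and EGF list had 21 and 24 (9.55% and 10.9% of 220). Among its genes were Nrg1, a neuregulin gene, at 6 and 1 and Btc, the betacellulin gene, at 0 and 3. Notch genes had 6 and 9 of 143, with Notch2, a receptor gene, at 3 and 1 and the effector genes Rbpj and Maml2 at 0 and 2 each. The net count of the Notch list, -3, was -13 to 0 with 1 library left out.

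Guidance and neurotrophin genes had 41 touch dome and 59 HF regions (8.89% and 12.8% of 461). Bdnf had 1 and 2 regions open in touch dome, 7 and 8 in HF and 1 and 1 in IFE, with 0 touch dome and 5 HF regions. Slit3, a guidance ligand gene, had 22 and 23 against 29 and 35 (4 and 10), and its receptor gene Robo1 stood on the other side at 7 and 0, with 13 and 19 regions open in touch dome and 7 and 7 in HF. Their net count of -18 was 3 without touch dome replicate 1, -58 without touch dome replicate 2, -47 without HF replicate 1 and -33 without HF replicate 2. Collagen genes had 13 and 27 (5.78% and 12% of 225), led toward HF by Col24a1 (0 and 4) and Col14a1 (0 and 3) and toward touch dome by Col23a1 (5 and 1). Their net count of -14 was -34 when touch dome replicate 2 was left out and -2 when touch dome replicate 1 was. Cadherin and desmosome genes were near even at 24 and 26 (10% and 10.9% of 239). Cdh4 stood at 4 and 0, the plakoglobin gene Jup at 3 and 0 and Pcdh7 at 0 and 8. AP-1 and immediate early genes had few of either (6 and 7, or 4.51% and 5.26% of 133).

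Follicle compartments other than the stem cell list gave mixed counts. Hair matrix and inner root sheath genes had 15 touch dome and 7 HF regions (15.2% and 7.07% of 99), including Cux1 at 6 and 2, and the patterning genes Msx2 and Foxq1 at 2 and 0 each. Sebaceous gland genes had 6 and 13 of 100, 7 of the 13 at Prdm1, and the net count of -7 was -3 without touch dome replicate 1, -14 without touch dome replicate 2, -25 without HF replicate 1 and 0 with wide peaks only. Infundibulum and junctional zone genes had 3 and 7 (3.19% and 7.45% of 94), with a net count of -7 to -3 with 1 library left out.

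Marker lists of other cell types had few regions of any state, so their shares rest on small numbers. Merkel cell genes had 1 touch dome and 2 HF regions of 31, over 13 of 20 genes with any region. Both HF regions lay at Piezo2, the touch channel gene, and Krt20, Vip and Chga had no region in any of the 4 libraries. Immune genes had 4 and 0 of 19 (21.1% and 0%), 1 each at Ptprc, Cd3e, Itgam and Cx3cr1, while Cd207, Cd4, Cd8a and Csf1r had none in any library. Summed over the immune list, 16 and 18 regions were open in touch dome, 12 and 10 in HF and 16 and 17 in IFE. Endothelial and mural genes had 5 and 11 of 86 (5.81% and 12.8%), with 8 of the 11 at Erg, and Cdh5 and Kdr had no region. Fibroblast genes had 6 and 9 of 55 (10.9% and 16.4%), melanocyte genes 4 and 2 of 38 (10.5% and 5.26%), and Schwann cell and neuron genes 5 and 2 of 36 (13.9% and 5.56%). The fibroblast shares were both above those of all regions near genes, as were the touch dome shares of the immune, melanocyte and Schwann cell lists and the HF share of the endothelial list. The part of other cell types in the results was not tested, and fewer cells of a type cannot be told apart from fewer open regions per cell in sorted bulk samples.

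Some differing regions of 1 direction lay next to each other. Neighbours at most 50 kb apart with no differing region of the other direction between them were counted as 1 run. Touch dome regions formed 4567 runs and HF regions 4552, single regions included. Runs of 3 or more touch dome regions numbered 402 and held 1470 of the 6432. For HF regions, 302 such runs held 1050 of the 6054. The longest, 14 touch dome regions over 279.638 kb of chromosome 14 at Pibf1 and Klf5, held 27 regions of any state, of which 24 and 26 were open in touch dome, 11 and 11 in HF and 27 and 26 in IFE. The next held 11 touch dome regions over 127.907 kb of chromosome 11 at Nsf, Wnt3 and Wnt9b, with 17 and 16 of 17 regions open in touch dome and 3 and 4 in HF. Shorter runs included those at Grhl3 (7), at Il20ra and Il22ra2 (6) and at Irf4 and Exoc2 (6), the last with 6 of 6 regions open in both touch dome and both IFE libraries and 0 in HF. Toward HF, runs of 8 lay at Prdm1 and at Wwp2 with Nqo1 and Psmd7, and others included one of 7 at Erg and Kcnj15 and one of 6 at Wif1, where 8 of 8 regions were open in both HF libraries, 2 in each touch dome library and 0 in IFE. Runs were looked for after the data were seen, and regions in a run share their libraries. How often regions of any state lie this close was not counted.

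Differing regions over promoters were few but named genes directly. The 300-base window of 108 protein-coding genes was overlapped by a touch dome region and that of 99 by an HF region, against 9577 for regions open in all 4 libraries. At 80 (74.1%) of the touch dome genes the region was open in both IFE libraries, and at 72 (72.7%) of the HF genes it was closed in both. By width of the merged region, the leading touch dome genes were Adam8 (2320 bp), a membrane protease gene, Gpr37, Enthd1 (with 73 bases of overlap), Mcf2l, Ces2f, Irf4, Pkd1l2 (64 bases), Efna5, 4930583I09Rik and Cldn7. The leading HF genes were Avpr1a (2612 bp), Syde1, Sorcs3, Kcnk1 (2 bases), Bdnf, Satl1, C1ql3, Cpeb1, Bcar3 and Ahcyl2. At some of these the width came mostly from 1 library, as at Enthd1 (594 and 1921 bp in touch dome) and Avpr1a (558 and 2612 bp in HF).

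Some promoters shared a function and were picked after their values were seen. Of the SKINT family, Skint6, Skint7, Skint10 and Skint11 had touch dome regions over their starts, with peaks of 864 and 990 bp at Skint6 and 873 and 1204 bp at Skint7. The cytokine genes Il33, an epithelial alarmin (1209 and 1071 bp), Il1f5 (632 and 1035 bp) and Il1f9 (520 and 548 bp), which belong to the IL-1 and IL-36 families, and the interferon-induced genes Oas1a (746 and 866 bp), Oas1g (678 and 1318 bp) and Rsad2 (437 and 628 bp) did too. All 10 of these were open in both IFE libraries. The interferon-induced gene Tgtp1, with peaks of 330 and 751 bp in the region over its start, was open in 1. On the HF side were Hhip, Gdf10, Fstl1 (583 and 476 bp) and Sp5, a Wnt target gene (302 and 648 bp), and these 4 were closed in both IFE libraries.

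Short motifs were counted in the promoter windows on both strands. The windows counted (117 touch dome, 110 HF and 11292 for all 4 libraries) outnumber the protein-coding genes given above (108, 99 and 9577). These sets are therefore not those genes alone, and they may differ in make-up from the background of protein-coding genes. The AP-1 sequence TGANTCA, as in the Skint11 and Mmp3 promoters printed above, was present in 17 of 117 windows under touch dome regions (14.5%) and in 11 of 110 under HF regions (10%), against 6.99% of 21263 windows of protein-coding genes and 4.73% of windows under regions open in all 4 libraries. The Runx sequence AACCACA was present in 8 windows (6.84%) and 1 (0.909%), against 4.71% of all windows. The Ets sequence CCGGAAG, common in housekeeping promoters, was present in 5.98% and 4.55%, against 11.6% of all windows and 19.3% of those open in all 4 libraries. The windows also differed in base composition, with a median GC content of 56% (touch dome), 57.7% (HF) and 62% (all 4), and its part in these shares was not tested. The Tead sequence GGAATG was present in 19.7% and 17.3%, against 13.6% of all windows. The E-box CAGCTG was present in 17.9% and 11.8%, against 15.6%, and the sequence AGATAA, read by GATA factors, in 12.8% and 9.09%, against 9.65%. The Klf sequence GGGCGTG was present in 12% and 13.6%, against 10.9%. The shares for the Lhx sequence TAATTA were 5.13% and 4.55%, against 4.53%, and those for the Sox sequence ACAATGG 1.71% and 1.82%, against 2.92%.

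Of 1005 microRNA hairpins compared, 5 lay under a touch dome region and 5 under an HF region. Those with a widely known product are printed with the seed (bases 2 to 8) in capitals. They share no seed.
mmu-miR-199a-5p: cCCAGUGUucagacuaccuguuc
mmu-miR-199a-3p: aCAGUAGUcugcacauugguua
mmu-miR-192-5p: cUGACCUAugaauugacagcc
mmu-miR-194-5p: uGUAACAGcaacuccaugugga
The Mir199a-1 hairpin (chr9:21496495-21496564) lay under a touch dome region of 1437 bp that was open in both IFE libraries. The Mir192 and Mir194-2 hairpins lay together under a single HF region (chr19:6264325-6265314, 990 bp) that was open in 1 IFE library. The other touch dome hairpins were Mir7008, Mir7020, Gm38671 and Mir8095, and the other HF hairpins Mir5114, Mir224 and Mir2137. A region over a hairpin says nothing of the level of the microRNA.

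Peak width gave a second comparison, at the 38518 regions open in all 4 libraries, which the presence criterion had left out. With limma on log2 peak length centred on each library's median, 535 regions (1.39%) were wider in touch dome and 360 (0.935%) wider in HF at a Benjamini-Hochberg adjusted p under 0.05. At Camta1, a transcription activator gene, the peak was 1421 and 1614 bp in touch dome and 331 and 314 bp in HF, a log2 difference of 2.24 ± 0.104 (SE; limma adjusted p = 0.0348). At Cep78, a centrosomal protein gene, it was 2523 and 3269 bp against 513 and 548 bp, and at Sirt2, a deacetylase gene, 2068 and 2140 bp against 422 and 361 bp. Toward HF, a region at Daam1, a formin gene of planar polarity, was 357 and 459 bp in touch dome and 2091 and 2044 bp in HF, a log2 difference of -2.34 ± 0.118 (SE; limma adjusted p = 0.0348). One at Ldlrad3, a receptor gene, was 394 and 430 bp against 1655 and 1665 bp. Regions at Adpgk and Asap1 (touch dome) and at Atxn7l1 and a site with no gene within 50 kb (HF) had the same adjusted p of 0.0348.

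**Figure D5:**
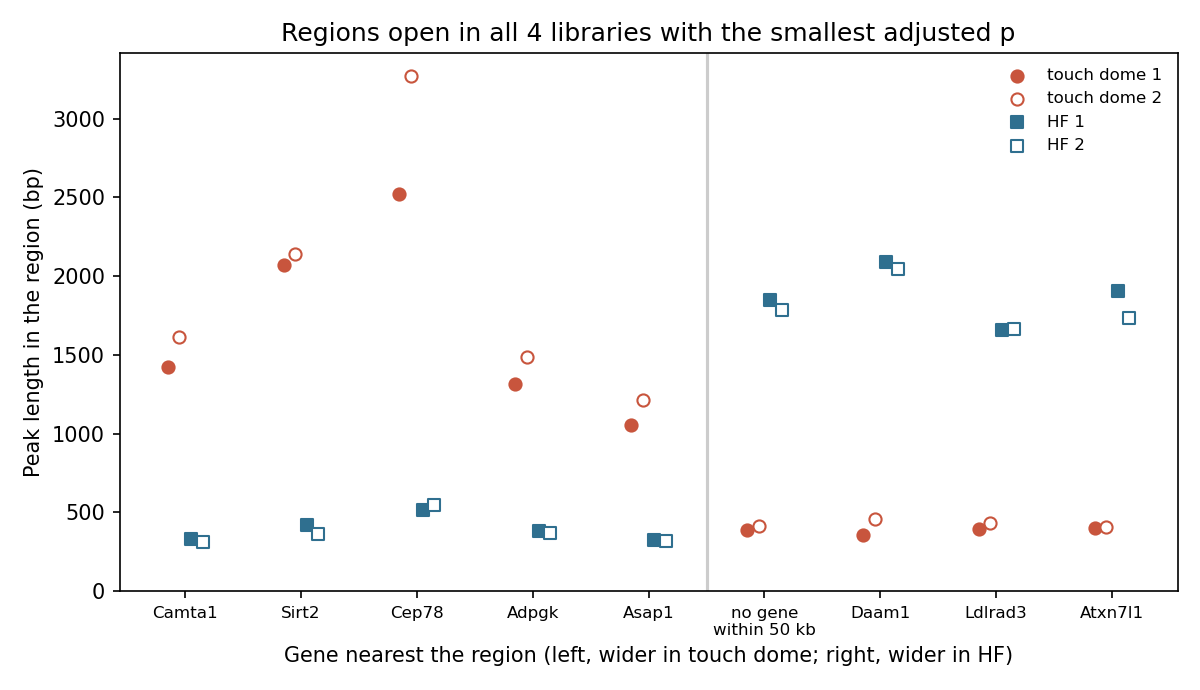
Peak length (vertical axis, bp) in each touch dome and HF library at 5 regions wider in touch dome and 4 wider in HF, among those with the smallest adjusted p in the width comparison. At Camta1, for example, peaks were 1421 and 1614 bp in touch dome and 331 and 314 bp in HF.

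These calls depended on single libraries and on centring. Without touch dome replicate 1 or without touch dome replicate 2 the numbers were 0 and 0, without HF replicate 1 they were 1530 and 1001, without HF replicate 2 they were 1567 and 1080, and without centring they were 0 and 0. At an unadjusted p under 0.05 the main comparison had 3965 regions wider in touch dome and 3909 wider in HF, and the one without centring 3546 and 2985.

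The called regions also lay mostly away from gene ends. Of those wider in touch dome, 6.73% lay within 1 kb of a gene end, and of those wider in HF 7.5%, against 29.9% of regions not called. Both IFE libraries were open at 98.7% of the regions wider in touch dome, at 41.7% of those wider in HF and at 89.3% of those not called. Over all 33303 shared regions near genes, 439 were wider in touch dome and 274 in HF. Among 129 shared regions at differentiation and barrier genes, 10 were wider in touch dome and 0 in HF, at Rora (3), Cers3 and Tgm3 (2 each), Abca12, Elovl4 and Grhl3, with a median log2 difference of 0.08 against 0.01 over all regions near genes. Of 240 at stem cell and outer root sheath genes, 3 were wider in touch dome, at Tcf7l1 (2) and Cxcl14, and 4 in HF, at Nfatc1 (2), Nfib and Postn, with a median of -0.14. Of 106 at collagen genes, 2 were wider in touch dome and 6 in HF. The Hedgehog list had 0 and 1 (Hhip), the Wnt list 7 and 1, and the touch dome list 1 and 1 (Tnc and Hhip).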

How the data were processed

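ATAC-seq libraries of touch dome, HF and IFE cells (2 per group) were deposited by the authors as 1 peak list per library, each with 4 columns (chromosome, start, end and peak name) and no score, count or signal. Per the submitters' processing notes, which give no order, the tools were MACS2 2.2.7.1, Bowtie2 2.4.5, Trim Galore 0.6.7 and SAMtools 1.9, with the mm10 build. The sources used here give neither the calling threshold nor any shift of reads for the transposase, which both affect peak number and width.

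From these lists, peaks of the touch dome and HF libraries sharing at least 1 bp were merged, and each region was scored open or closed in every library, IFE included. A region was assigned to the nearest protein-coding gene span of the RefSeq table for GRCm38.p6 within 50 kb, with ties going to the smaller span. Gene ends are either end of a span, since the table gives no strand, and exons and introns were not annotated. Promoter windows and mature microRNAs came from the RefSeq tables of the same assembly. Peak width was compared with limma 3.58.1 (R 4.3.3) on log2 of the summed peak length per region, centred on each library's median, with Benjamini-Hochberg adjustment over the 38518 regions. Other steps used Python 3.11.15, pandas 2.3.3, NumPy 2.4.6 and SciPy 1.17.1, and both procedures were tested on simulated data, where the width comparison found only a minority of the changed regions.

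The groups came from the labels. The compared populations, the 29 gene lists (642 genes, 1 of them not in the annotation) and the rule for named genes were chosen with earlier results of these data known. The rule named, per direction, the 15 genes with the largest net count, 10 genes with a differing region over the start and the 5 widest regions, the 5 regions with the smallest adjusted p in the width comparison (1 of them is not reported here), up to 4 genes per list, and the 4 sort markers. Members given beyond these were chosen after their values were seen. Alternatives were a 100 bp merging gap, a 50% cover of the region, equal numbers of the widest peaks, only peaks at least as wide as the library median, autosomes only, merging of all 6 lists, other gene and gene-end distances, other width scalings, a replicate block and leaving out each library.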

Additional observations from a re-analysis of the deposited data

How the results depend on the processing

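Keeping only peaks at least as wide as the library median gave 2876 touch dome and 2907 HF regions, of which 95.4% and 44.2% (mean of the IFE libraries) were open in IFE. The IFE lists kept all their peaks, so a narrow peak could count in IFE but not in the compared lists. Of the regions under this setting, 9.28% and 8.05% had a gene end within 1 kb, with 1543 and 1404 genes having more touch dome or more HF regions. With 1 library left out, touch dome regions numbered 7433 to 11093 and HF regions 6403 to 11311, their shares open in IFE were 66.7% to 83.5% and 8.16% to 23.2%, their shares near a gene end 4.94% to 5.90% and 4.65% to 4.96%, and the genes 2595 to 4058 and 2036 to 3678. Equal numbers of the widest peaks gave IFE shares of 86.9% and 14.9%, and a cover of 50% gave 13.1% for HF regions and 5.67% of touch dome regions near a gene end. Under these settings too, any IFE peak counted as open. Within 500 bp of a gene end lay 3.67% and 3.17%, and within 5 kb 16.3% and 13.9%. Counting only regions that overlap a gene left 1711 genes with more touch dome regions.

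The net counts of 12 of the 29 lists turned sign under at least 1 alternative, in 22 values in all. Those of Merkel cell genes were 1 with a 100 kb window and -8 to 1 with 1 library left out. BMP and TGF-beta genes had 7 (50% cover), 9 (equal numbers) and 4 (wide peaks), FGF and EGF genes 1 (wide peaks) and -16 to 7 (1 library left out), cadherin genes 1 (merging within 100 bp), 5 (wide peaks) and -18 to 13 (1 library left out), and p63, AP-2, Klf and Grhl genes -5 (wide peaks). With 1 library left out, guidance genes had -58 to 3 and forkhead, Sox and Runx genes -22 to 17, the upper values being those without touch dome replicate 1. AP-1 genes had 3 without that library and 1 with wide peaks. Melanocyte genes had -2 (equal numbers), -4 (wide peaks), -1 (without touch dome replicate 2) and -2 (100 kb window), fibroblast genes 2 (10 kb window), endothelial genes 1 (equal numbers), and Schwann cell and neuron genes -1 (wide peaks). Of the named genes, wide peaks gave -1 at Ehf, Fhod3 and Vwf, 1 at Prdm1, Ror1 and Thrb and 2 at Nfia. Fosl2 had 1 (overlap with the gene), Gas1 1 (10 kb window), Ncam1 1 (100 kb window) and Dlx3 -1 (without HF replicate 2), and with 1 library left out Nfia had -8 to 3, and Thrb had 1 without touch dome replicate 1. Of the other alternative values of genes, 1251 stayed near the main value and 309 moved further, some of them to 0, without turning sign. The cause was not tested.

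In the width comparison, limma with a replicate block called 1883 regions wider in touch dome and 1594 wider in HF, no centring gave 0 and 0, and leaving out 1 library gave 0 to 1567 and 0 to 1080, with the lone library of a group assumed to vary like the other group. Whether same-numbered libraries came from the same animals is not stated. Their deviations from the group means correlated at 0.0413 over regions, which cannot settle it. With no scores or read counts in the lists, a closed region cannot be told apart from one below the calling threshold. Leaving out a library drops a condition, so region counts can only grow.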

Other observations

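A smaller set of touch dome regions was closed in both IFE libraries as well as in both HF libraries. It held 855 regions, with a median width of 669 bp, and 607 of them lay within 50 kb of 526 genes. Beside Cfap299 (5 regions) and Slc35f1 (4), genes with 4 such regions were Zfpm2, Kcnq3 and Dock2. At Zfpm2, which encodes a GATA cofactor, 4 of 4 touch dome regions belonged to it, and 4 and 4 regions were open in touch dome, 0 and 0 in HF and 0 and 0 in IFE. Kcnq3 is a potassium channel gene (4 of 5) and Dock2 a guanine exchange factor gene best known from leukocytes (4 of 6). At Elk3, Nkain3 and Tnni3k it held 3 of 3. Tnni3k had 3 and 4 regions open in touch dome and 0 in every HF and IFE library. At Runx1, all 3 touch dome regions were of this kind, while 7 other regions of the gene were HF regions. By list, against 13.3% of all touch dome regions, it held 9 of the 41 at guidance and neurotrophin genes, 6 of the 24 at cadherin and desmosome genes and 0 of the 8 at touch dome keratinocyte genes, numbers too small to set the lists apart. These genes were picked after their values were seen.

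The opposite minority, HF regions open in both IFE libraries, held 251 regions, of which 217 lay near 210 genes, and their median width was 623 bp. No gene had more than 2, and those with 2 were Ap1m1, Foxn3, Gpt2, Nedd9, Ppargc1a, Slc38a3 and Smg1. Ppargc1a encodes a co-activator of mitochondrial biogenesis, and Nedd9 was also among the genes with the largest number of HF regions.

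The direction of a gene's differing regions was also seen, more toward HF than toward touch dome, in the widths of its regions open in all 4 libraries. These shared regions took no part in choosing the differing regions, though both measures come from the same lists. At 244 genes with a net count of 3 or more touch dome regions, 59.7% of 1426 shared regions were wider in touch dome, with a median log2 difference of 0.07. At genes with a net count of 0 the share was 55.3% of 17646, and at 207 genes with a net count of 3 or more HF regions it was 34.2% of 1586, with a median of -0.11. With a net count of 1 or 2 it was 56.3% of 6216 on the touch dome side and 44.9% of 6429 on the HF side. These shares are over regions of 4 libraries and carry no test.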
